A study of Homo sapiens with 6 samples.

Results

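The genes that release calcium from intracellular stores and refill those stores were compared in COV434 cells with and without BRG1. They are the IP3 receptors ITPR1, ITPR2 and ITPR3, the store pumps ATP2A2 and ATP2A3, the store sensors STIM1 and STIM2, the store-operated channels ORAI1 and ORAI2, and the mitochondrial channel MCU. The members were chosen by gene symbol, with an earlier report in view that loss of SMARCA4 lowers ITPR3. Earlier results of these data were also known when they were chosen. All 10 were found among the 19899 genes of the deposited table. COV434 is an established line from an ovarian tumor, which the study places with SCCOHT, an ovarian small cell cancer with high blood calcium that lacks BRG1 protein. SMARCA4 encodes BRG1, the motor of SWI/SNF complexes, which remodel chromatin. Control samples (n = 3) received the empty plasmid pCDNA3-neo and BRG1 samples (n = 3) the plasmid PBJ5-BRG1. Both groups also received pBABE-puro for puromycin resistance, were selected from 24 hours on in puromycin at 2 to 3 µg/ml, and were harvested after 3 days. The labels number the samples 1 to 3 in each group and call them biological replicates. Expression was transient, in bulk RNA of a single line.

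Cells keep calcium in the endoplasmic reticulum at a far higher concentration than in the cytosol. Receptors that activate phospholipase C produce IP3, which opens the IP3 receptors, and calcium leaves the store. SERCA pumps, encoded by the ATP2A genes, return it. When the store is empty, STIM proteins in its membrane open ORAI channels in the plasma membrane, which is called store-operated entry. MCU is the pore by which mitochondria take up calcium released close to them.

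Among the 10 genes, ITPR3 was the exception. Its transcript rose about 10.2-fold with BRG1, while none of the other 9 genes passed the test in either direction. Of all genes tested, 11.0% passed as higher, so 1 of 10 is close to that background. In Control ITPR3 was the least abundant member per kb of transcript, and it remained a small part of the IP3 receptor transcripts afterwards. The promoters of ITPR1 and ITPR3 are shown because these genes of a single family differed most in level and in response. Each window runs from 250 bases before to 50 bases after a RefSeq start site (GRCh38.p14, plus strand for both). Capitals mark CpG dinucleotides. The ITPR1 window is chr3:4493098-4493397 and the ITPR3 window is chr6:33621072-33621371. The RefSeq start of ITPR3 lies inside the gene as GENCODE draws it, downstream of the first annotated base.
ITPR1: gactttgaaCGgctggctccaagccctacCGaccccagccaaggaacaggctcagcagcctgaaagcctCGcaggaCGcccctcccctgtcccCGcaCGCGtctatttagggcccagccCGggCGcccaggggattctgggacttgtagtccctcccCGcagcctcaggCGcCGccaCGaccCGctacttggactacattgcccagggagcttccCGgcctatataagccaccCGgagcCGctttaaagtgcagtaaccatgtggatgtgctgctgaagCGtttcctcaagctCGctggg
ITPR3: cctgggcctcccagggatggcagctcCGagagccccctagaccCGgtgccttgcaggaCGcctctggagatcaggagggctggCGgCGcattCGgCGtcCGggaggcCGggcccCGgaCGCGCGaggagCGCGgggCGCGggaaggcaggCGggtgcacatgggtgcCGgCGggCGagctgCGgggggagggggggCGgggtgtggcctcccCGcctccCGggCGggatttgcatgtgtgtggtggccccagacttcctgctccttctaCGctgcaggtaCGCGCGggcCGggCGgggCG
The ITPR1 window held 19 CpG dinucleotides and 63.3% G and C bases, and the ITPR3 window held 33 and 76.0%. RefSeq windows were at hand for 7 of the 10 genes, 12 windows in all, with G and C contents from 55.7% to 81.7%. ATP2A3, ITPR2 and ORAI1 had no window. The AP-1 motif TGANTCA, which reads the same on both strands, was found in 0 of the 12 windows and in 7.71% of all 35116 windows of this length. The search says only that these letters are not in these windows.

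Values below are normalised counts, which are the deposited estimated counts divided by a size factor for each library, and log2 fold changes (BRG1 over Control) are given ± their standard error (SE). A gene is called when its adjusted p is under 0.05. In data simulated with independent samples, without an effect shared by replicate number, DESeq2 made too many false calls. The false share of edgeR was lower there but also above the threshold. Fewer genes were changed in the simulation than were called here, so the false share in these data is not known. The edgeR value is given beside each call of a gene described in detail. The libraries held between 29699741 and 63613710 estimated counts. SMARCA4, examined first as the transfected gene, rose from 1551 ± 119 to 88773 ± 17220 (SD, n = 3), plasmid transcripts among them, a log2 fold change of 5.84 ± 0.18 (SE; DESeq2 adjusted p 5.4e-216, edgeR 6.1e-06). SMARCA2, the other ATPase gene, which SCCOHT cells lack, stayed between 3.79 and 35.7 in all 6 samples. The marker lists were chosen with earlier results of these data known, so their counts only describe these samples. Over all genes, DESeq2 called 11.0% higher and 1.84% lower. Interferon response genes moved with the groups, and 10 of 10 listed were called higher. Their summed level was 20752 to 24454 in Control and 227730 to 255206 in BRG1 samples. Other marker lists moved less evenly. Of 5 endothelial markers, VWF, CDH5 and TIE1 were called higher, and the summed level was 1325 to 2202 in Control and 5411 to 6072 in BRG1 samples. Of 5 epithelial markers, KRT8 and KRT18 were called higher, EPCAM and KRT19 held at most 3 counts in any sample, and the sum was 30.3 to 107.9 against 496 to 1643. Of 7 granulosa markers, CYP19A1 was called higher, FOXL2, FSHR and AMHR2 held at most 3 counts, and the sum was 291 to 472 against 641 to 922. The fibroblast sum (6 genes, PDGFRA called higher) was 5244 to 8746 against 4274 to 9343. The leukocyte sum (5 genes, LYZ called higher, CD3E at most 3 counts) was 349.6 to 680 against 385 to 772. edgeR also called each marker gene counted here. The part of these lists in the results below was not tested.

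The release channels were compared first. ITPR3 (chromosome 6, 33620365 to 33696574, plus strand, GRCh38 in GENCODE release 44) encodes the type 3 IP3 receptor, a form known from epithelial and secretory cells. Control samples 1 to 3 held 43.9, 23.5 and 40.1 normalised counts of ITPR3, and BRG1 samples 1 to 3 held 511, 338 and 245. The lowest BRG1 sample lay several times above the highest Control sample, and the groups did not overlap. Among BRG1 samples, sample 1 was the highest for ITPR3 and sample 3 the lowest. SMARCA4 itself stood at 108655, 79075 and 78589 in the same samples, so samples 2 and 3 lay close for SMARCA4 but not for ITPR3. The totals of these libraries were 63613710, 54451035 and 29699741 estimated counts. A relation of ITPR3 to either was not tested. The ITPR3 mean rose from 35.8 ± 10.9 to 365 ± 135 (SD, n = 3). The log2 fold change was 3.35 ± 0.38 (SE), which is 10.2-fold with a 95% interval of 6.07 to 17.0 (DESeq2 adjusted p 6.5e-17). Taken number by number, the rise was 11.6-fold, 14.4-fold and 6.10-fold, present in 3 of 3. edgeR gave a log2 fold change of 3.32 (edgeR adjusted p 0.00112). In bulk RNA, a rise in more cells and a larger rise in fewer cells cannot be told apart.

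ITPR3 was a low-count gene in Control, with raw counts from 20 in the lowest library to 704 in the highest of the BRG1 libraries. Its change was of ordinary size among rising genes, ranking 784 of the 1764 genes called higher by log2 fold change, whose median was 2.91. Exons of UQCC2, a gene on the opposite strand that encodes a mitochondrial complex assembly factor, cover 10.4% of the annotated exonic bases of ITPR3. The libraries do not keep strand, so reads there cannot be assigned to a gene with certainty. UQCC2 itself stood at 1792 ± 305 in Control against 1913 ± 279 with BRG1 (SD, n = 3), and its log2 fold change of 0.09 was not called (DESeq2 adjusted p 0.893). Around ITPR3, 10 other genes of the table lie within 250 kb, and 9 of them had an adjusted p. DESeq2 called 0 of these higher and 0 lower, where it called 11.0% and 1.84% of all genes. Among 9 genes, 0 calls cannot be told apart from that background. The nearest to the threshold was IP6K3, which makes inositol pyrophosphates, with a mean normalised count of 0.391 in Control against 7.67 with BRG1 (log2 fold change 4.38, DESeq2 adjusted p 0.0598). BAK1, a pore-forming BCL2 family gene upstream of ITPR3, stood 0.38 higher on the log2 scale (DESeq2 adjusted p 0.161).

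ITPR1 (chromosome 3, 4493345 to 4847506, plus strand) encodes the type 1 receptor and was the most abundant member per kb of transcript. It held 42716, 44780 and 46235 normalised counts in Control against 31624, 37275 and 45494 with BRG1. BRG1 samples 1 and 2 lay below every Control sample, but BRG1 sample 3 lay among them. The log2 fold change was -0.23 ± 0.17 (SE), with a 95% interval for the change of -32.5% to 8.39% (DESeq2 adjusted p 0.554). With pairing by replicate number DESeq2 gave an adjusted p of 0.111. ITPR2 (chromosome 12, 26335352 to 26833194, minus strand), which encodes the type 2 receptor, held 707, 461 and 699 normalised counts in Control against 651, 496 and 630 with BRG1. The BRG1 values lay inside the Control range, and the log2 fold change was -0.07 ± 0.24 (SE; DESeq2 adjusted p 0.937), with a 95% interval of -0.54 to 0.39.

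**Figure D1:**
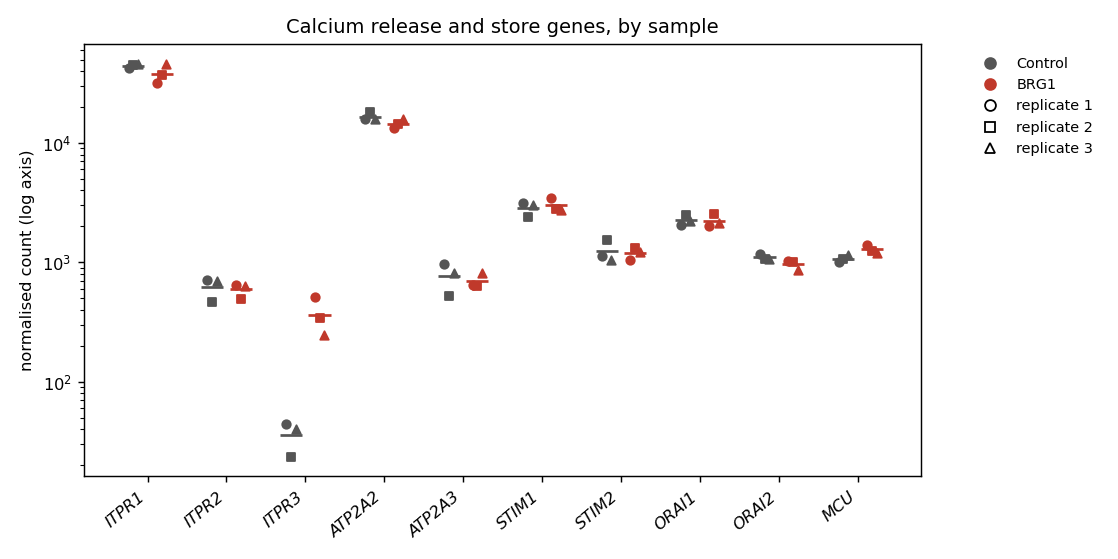
Normalised counts of the 10 calcium release and store genes on a log axis, by sample. Each point is a sample, with its shape for the replicate number, grey for Control and red for BRG1, and the bar is the mean of 3. ITPR3 rises from 23.5 to 43.9 in Control to between 245 and 511 in BRG1 samples, and the other 9 genes differ far less between the groups.

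The make-up of the IP3 receptor pool was then examined. Counts were divided by the length of the canonical transcript, 9.908 kb for ITPR1, 12.564 kb for ITPR2 and 9.079 kb for ITPR3, since longer transcripts give more reads. Per kb, ITPR3 made up 0.11%, 0.0567% and 0.0935% of the pool in Control samples 1 to 3. In BRG1 samples it made up 1.70%, 0.970% and 0.577%. ITPR1 made up between 96.7% and 99.1% in all 6 samples, and ITPR2 between 0.805% and 1.57%. ITPR3 therefore went from a share far below that of ITPR2 to a similar one. On the log2 scale the ratio of ITPR3 to ITPR1 and ITPR2 together was -10.2 ± 0.502 in Control and -6.65 ± 0.789 with BRG1 (SD, n = 3). The difference was 3.57, and the ratio was higher with BRG1 in 3 of 3 replicate numbers. The two-sided exact permutation p was 0.1, the smallest that 3 samples against 3 allow, or 0.4 adjusted over the 4 ratios compared. With the replicate numbers paired the exact p was 0.25, likewise the smallest possible. These tests cannot reach 0.05 at this sample size.

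**Figure D2:**
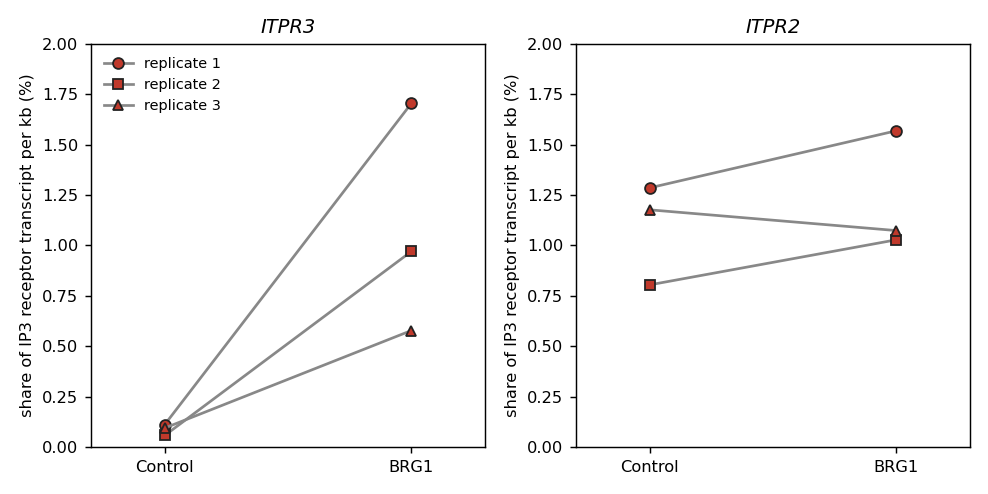
Share of IP3 receptor transcript per kb taken by ITPR3 (left) and ITPR2 (right), in percent, with lines joining samples of the same replicate number. ITPR3 rises in all 3, to between 0.577% and 1.70%, and ITPR2 lies between 0.805% and 1.57% in both groups. The remainder is ITPR1.

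The store pumps refill the endoplasmic reticulum. ATP2A2 (chromosome 12, 110280756 to 110351093, plus strand) encodes SERCA2, the pump found in most cells. It held 15895, 18060 and 15743 normalised counts in Control against 13236, 14344 and 15830 with BRG1, and only BRG1 sample 3 reached the Control range. The log2 fold change was -0.20 ± 0.14 (SE), with a 95% interval for the change of -27.8% to 5.63% (DESeq2 adjusted p 0.502). ATP2A3 (chromosome 17, 3923870 to 3964464, minus strand) encodes SERCA3, which is best known from blood and epithelial cells. It held 959, 517 and 818 normalised counts in Control against 648, 627 and 806 with BRG1. Again the BRG1 values lay inside the Control range, at a log2 fold change of -0.14 ± 0.26 (SE; DESeq2 adjusted p 0.869) and a 95% interval of -0.66 to 0.38. Per kb, the log2 ratio of ATP2A2 to ATP2A3 was 3.66 ± 0.569 in Control against 3.57 ± 0.114 with BRG1 (SD, n = 3), with an exact permutation p of 1.

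The store sensors and the channels they open make up store-operated entry. STIM1 (chromosome 11, 3854527 to 4093210, plus strand), the main sensor, held 3122, 2373 and 2992 normalised counts in Control against 3450, 2810 and 2760 with BRG1, and the groups overlapped. STIM1 had a log2 fold change of 0.09 ± 0.18 (SE; DESeq2 adjusted p 0.885), with a 95% interval of -0.27 to 0.44. STIM2 (chromosome 4, 26857601 to 27025381, plus strand), which responds to smaller losses from the store, held 1138, 1531 and 1049 in Control and 1045, 1317 and 1221 in BRG1 samples. For both sensors sample 2 of Control was the extreme, low for STIM1 and high for STIM2. The STIM2 log2 fold change was -0.05 ± 0.21 (SE; DESeq2 adjusted p 0.946), with a 95% interval of -0.46 to 0.35. The log2 ratio of STIM1 to STIM2 per kb was 1.46 ± 0.493 in Control against 1.60 ± 0.342 with BRG1 (SD, n = 3), with an exact permutation p of 0.8.

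ORAI1 (chromosome 12, 121626509 to 121643218, plus strand) is the pore subunit of the store-operated channel. It had the smallest log2 fold change of the members, with 2039, 2512 and 2227 normalised counts in Control against 2003, 2543 and 2128 with BRG1. The values lay close within each replicate number, with folds of 0.982, 1.01 and 0.956. The estimate was -0.02 ± 0.17 on the log2 scale (SE; DESeq2 adjusted p 0.971), with a 95% interval of -0.35 to 0.31. ORAI2 (chromosome 7, 102433106 to 102456825, plus strand), a related subunit, held 1168, 1061 and 1068 in Control and 1023, 1009 and 866 in BRG1 samples. Here the groups did not overlap, and each BRG1 sample was lower than each Control sample. The change was small beside its error, at -0.18 ± 0.15 on the log2 scale (SE; DESeq2 adjusted p 0.578), with a 95% interval of -0.47 to 0.11. The log2 ratio of ORAI1 to ORAI2 per kb was 3.88 ± 0.221 in Control against 4.05 ± 0.201 with BRG1 (SD, n = 3), with an exact permutation p of 0.5.

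MCU (chromosome 10, 72692143 to 72887694, plus strand) encodes the pore of the mitochondrial calcium uniporter. It held 996, 1059 and 1157 normalised counts in Control against 1407, 1248 and 1193 with BRG1. The groups did not overlap, with each BRG1 sample above each Control sample, though the margin between the nearest samples was narrow. MCU had the largest log2 fold change after ITPR3, 0.26 ± 0.15 (SE), with a 95% interval for the change of -2.32% to 46.9% (DESeq2 adjusted p 0.339). By replicate number the folds were 1.41, 1.18 and 1.03.

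**Figure D3:**
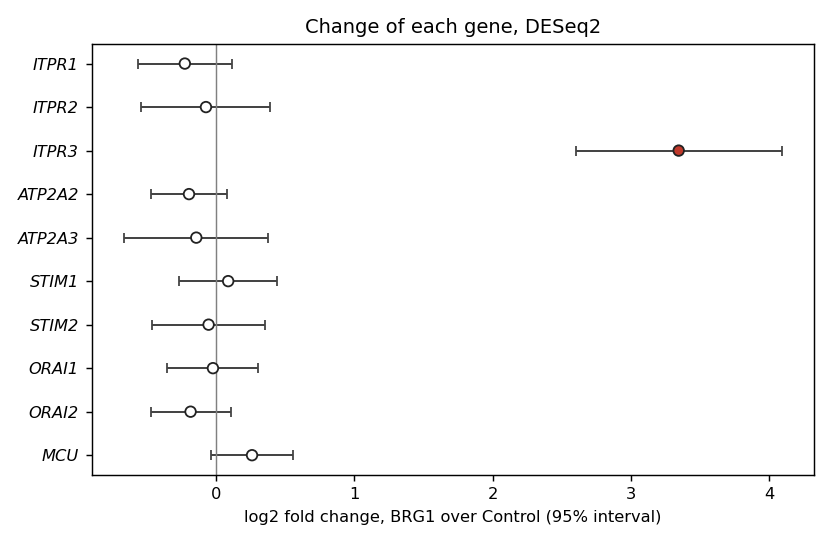
Log2 fold change of each gene, BRG1 over Control, from DESeq2. Points are estimates, bars are 95% intervals, and red marks an adjusted p under 0.05. The interval of ITPR3 runs from 2.60 to 4.09, and each of the other 9 intervals includes 0.

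Counted over the members, DESeq2 called 1 of 10 higher, where 11.0% of the 16002 genes with an adjusted p were called higher. It called 0 of 10 lower, where 1.84% of all genes were. Without adjustment, a p under 0.05 was reached by 1 member that was higher and 0 that were lower. edgeR also called ITPR3 and 0 other members, where it called 9.57% of its 14246 genes higher and 1.02% lower. The same members' count of 1 higher and 0 lower came from limma-voom (9.31% and 1.19% of all genes), from DESeq2 with the replicate block (13.4% and 6.61%) and from edgeR with it (13.7% and 5.68%). Of the 10 members 3 had a log2 fold change above 0, with a median of -0.06 beside a median of -0.01 over all genes tested. In 2 members all BRG1 samples were above all Control samples, against 16.7% of genes tested, and in 1 all were below, against 9.92%. The count of calls was close to the background of all genes. The intervals of the 9 uncalled members together spanned changes of -36.8% to 46.9%. The lowest bound was that of ATP2A3 and the highest that of MCU, while the interval of ORAI1 ran from -21.6% to 23.7%. All of these intervals come from the fit without pairing. For each gene, changes inside its own interval remain possible with 3 samples a group.

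Levels were ordered per kb of canonical transcript. In Control the order was ITPR1, ATP2A2, ORAI1, STIM1, MCU, STIM2, ATP2A3, ORAI2, ITPR2 and ITPR3. ITPR1 stood at 4499 ± 178 normalised counts per kb, ATP2A2 at 1997 ± 156, ORAI1 at 1510 ± 159 and ITPR3 at 3.94 ± 1.20 (SD, n = 3). No neighbours in this order overlapped in the range of their 3 Control samples. The order of means was the same in BRG1 samples, but there ATP2A2 and ORAI1 overlapped, and so did ITPR2 at 47.1 ± 6.69 and ITPR3 at 40.1 ± 14.9 (SD, n = 3). In Control ITPR2 had stood at 49.5 ± 11.1, clear of ITPR3.

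Genes with a pattern like that of ITPR3 were sought over the 6 samples among 11685 genes with a mean of at least 100. Pearson's correlation of the variance-stabilised values was highest for BMP1, CCK, PRELP, KCND3 and DDR1, between 0.9988 and 0.9995. The points share the 2 groups and the libraries, so the values describe these samples only. BMP1, a procollagen protease, had a mean of 793 normalised counts in Control against 5880 with BRG1, and DDR1, a collagen receptor, 1054 against 2201. KCND3, a potassium channel subunit, had means of 129 and 1727. CCK, the gut hormone cholecystokinin, had a mean of 3.24 in Control and 539 in BRG1 samples, and PRELP, a matrix proteoglycan, 6.78 and 464.

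The other genes of calcium stores and calcium signalling were examined by role, in a list of 85 genes in 11 roles. Of the 80 with an adjusted p, DESeq2 called 5 higher (PLCD3, PLCE1, CASQ1, ATP2B4 and CALM2) and 1 lower (RCN2). These are 6.25% and 1.25% of the list, below the 11.0% and 1.84% of all genes. Of 73 tested, edgeR called the same 5 higher (6.85%, against 9.57% of all genes) and 0 lower (1.02% of all genes). The list was split evenly, with 42 genes above 0 and 38 below and a median log2 fold change of 0.03. In 4 genes no sample held more than 3 counts.

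Of the enzymes that make IP3, 2 of 10 were called higher, where 11.0% of all genes were. PLCE1 (chromosome 10, 93993931 to 94332823), a phospholipase C controlled by small GTPases, held 157, 111 and 160 normalised counts in Control against 1529, 872 and 684 with BRG1. It rose by 2.85 ± 0.33 on the log2 scale (SE; DESeq2 adjusted p 7.7e-16, edgeR 0.00122). PLCD3 (chromosome 17, 45108959 to 45133354), a phospholipase C of the delta class, held 2076, 1384 and 1475 in Control and 8857, 5641 and 3419 in BRG1 samples. It rose by 1.86 ± 0.34 on the log2 scale (SE; DESeq2 adjusted p 7.7e-07, edgeR 0.00879). As with ITPR3, BRG1 sample 1 was the highest and BRG1 sample 3 the lowest for both. That order also held for MCU, and for CASQ1, ATP2B4 and CALM2 below, so it is not particular to these genes. Of the 3 genes of IP3 breakdown with an adjusted p, 0 were called, against 11.0% higher and 1.84% lower of all genes.

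Among the store buffers and chaperones, 1 of 10 with an adjusted p was called higher and 1 lower, against 11.0% and 1.84% of all genes. CASQ1 (chromosome 1, 160190575 to 160201886), the calcium-binding protein that skeletal muscle keeps in its stores, held 6.09, 10.6 and 3.79 normalised counts in Control against 381, 309 and 206 with BRG1. It rose by 5.52 ± 0.48 on the log2 scale (SE; DESeq2 adjusted p 1.7e-28, edgeR 0.000277). RCN2 (chromosome 15, 76931738 to 76954393), a calcium-binding protein of the secretory pathway, held 5811, 5630 and 5774 in Control and 3666, 3680 and 4818 in BRG1 samples. It fell by 0.50 on the log2 scale, with an SE of 0.16 (DESeq2 adjusted p 0.0188). That call was lost under edgeR (adjusted p 0.0574), with library totals as the scale (DESeq2 adjusted p 0.0677) and without any of the 3 Control samples or BRG1 sample 1 or 2, where DESeq2 adjusted p-values reached 0.169, while the replicate block kept it (DESeq2 adjusted p 0.00024). The general chaperones CALR, CANX, HSPA5, HSP90B1 and PDIA3, which were singled out after looking at the values, had log2 fold changes from -0.06 to 0.16, and 0 of these 5 were called.

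At the plasma membrane, ATP2B4 (chromosome 1, 203626832 to 203744081), which encodes the calcium extrusion pump PMCA4, held 2612, 2936 and 3314 normalised counts in Control against 8161, 6349 and 4994 with BRG1. It rose by 1.14 ± 0.22 on the log2 scale (SE; DESeq2 adjusted p 4.2e-06, edgeR 0.00536), and it was the 1 gene called of the 6 tested in its role. CALM2 (chromosome 2, 47160084 to 47176921), a calmodulin gene, held 11009, 12419 and 11333 in Control and 20675, 17926 and 13964 in BRG1 samples. It rose by 0.60 ± 0.18 on the log2 scale (SE; DESeq2 adjusted p 0.0123, edgeR 0.0425). CALM2 has near-identical processed copies, so its count is uncertain, and the call was lost without Control sample 1 or 3 or BRG1 sample 1 or 2, where DESeq2 adjusted p-values ran from 0.0828 to 0.117. DESeq2 called 0 of the genes with an adjusted p in the roles of mitochondrial calcium (11 genes), endolysosomal channels (5) and IP3 receptor partners (5). It also called 0 among other release and leak channels (5), other store pumps and regulators (5) and partners of store-operated entry (5 of 7 listed). Over all genes it called 11.0% higher and 1.84% lower, which is the share to set beside each role here.

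**Figure D4:**
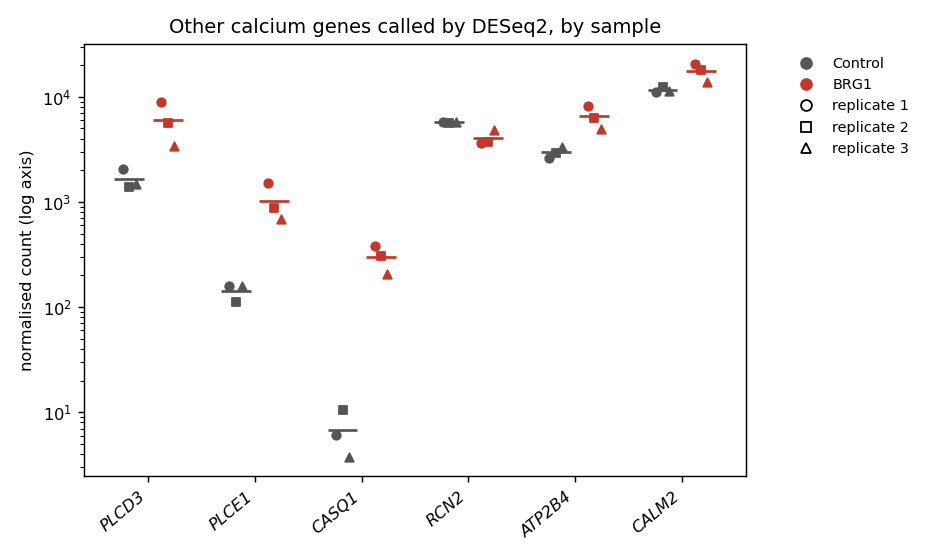
Normalised counts, on a log axis, of the 6 genes called by DESeq2 in the wider list. Points are samples, shapes replicate numbers and bars the mean of 3 in Control (grey) and BRG1 (red). RCN2 is lower in BRG1 samples and the other 5 genes are higher, with BRG1 sample 3 nearest to Control in all 6.

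The pairing moved the counts of this wider list. Blocked on replicate number, DESeq2 called 10 of the 78 genes tested higher (12.8%, against 13.4% of all genes) and 4 lower (5.13%, against 6.61%), which included the 5 and the 1 called without the block. The calls of all genes rose as well under the block. The genes added, named after their values were seen, were the phospholipase PLCB3, the ryanodine receptor RYR2, the buffer RCN1, the calcineurin subunit PPP3CA and the calcineurin inhibitor RCAN1 as higher, and MCUR1 (mitochondrial uptake), TPCN1 (an endolysosomal channel) and the calcineurin subunit PPP3CB as lower. RCAN1, known as a target of calcineurin signalling, held 804, 682 and 753 normalised counts in Control against 1813, 1171 and 778 with BRG1, folds of 2.25, 1.72 and 1.03 by replicate number. Its log2 fold change was 0.67 with the block (DESeq2 adjusted p 0.016) and 0.75 without it (DESeq2 adjusted p 0.0925), and edgeR did not call it with the block (edgeR adjusted p 0.055). Of 73 tested, edgeR with the block called 8 higher, against 13.7% of all genes, and 4 lower, against 5.68%. The 4 lower and 7 of the 8 higher were also called by DESeq2 with the block. RCAN1, RYR2 and PPP3CA were not called, and the remaining gene was RCAN2, a relative of RCAN1 (edgeR adjusted p 0.0468).

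**Figure D5:**
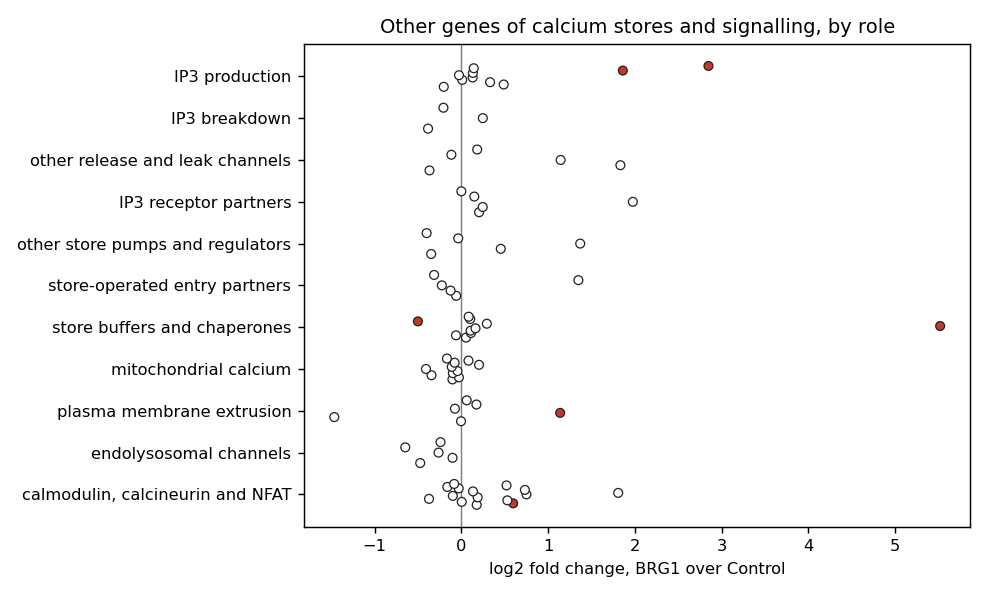
Log2 fold change, BRG1 over Control, of the 80 other calcium genes with an adjusted p, grouped by role. Red points were called by DESeq2, 5 higher and 1 lower. CASQ1 is the point at 5.52, and the uncalled points above 1 are genes with means of at most 41.9 normalised counts.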

How the data were processed

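RNA-seq of 6 samples was analysed. Poly(A) libraries without strand were made from 500 ng of RNA and read as pairs of 78 bases. The authors aligned reads with STAR (2.5.3a), quantified them with salmon (0.8.2) and summed transcripts per gene symbol with tximport, and deposited estimated counts (lengthScaledTPM). These were rounded to whole numbers here. Salmon shares out reads that fit several genes, so near-identical and overlapping genes are uncertain. Samples were grouped by title.

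BRG1 was compared with Control over all genes by DESeq2's Wald test (1.42.0, R 4.3.3), the tool the study names, with median-ratio size factors, no covariate and Benjamini-Hochberg adjustment. A gene was called at an adjusted p under 0.05. Alternatives were the quasi-likelihood test of edgeR (4.0.16), voom of limma (3.58.1), the replicate number as a block, TMM or library-total scaling, a filter of 10 counts in 3 samples, and leaving out each library. Every fit but the last kind was tested on simulated data. There the false share of DESeq2 calls was above the stated threshold, and that of edgeR was lower but also above it. The simulated samples were drawn independently, without an effect shared by replicate number, and with fewer changed genes than were called here. The false share in the real data is not known from them. edgeR values therefore stand beside the calls described in detail. Intervals are the estimate ± 1.96 standard errors. Ratios used two-sided exact permutation tests (SciPy 1.17.1).

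Same-numbered samples deviated together from their group means, with correlations of 0.569, 0.610 and 0.643 over 11686 genes (other pairs -0.596 to 0.119). The numbers, taken from the titles, served as pairs only in the blocked fits, the paired ratio tests and the folds by replicate number. The main test, with its standard errors, intervals and adjusted p-values, left this pairing out. Lengths and coordinates come from GENCODE release 44 and promoters from RefSeq, both on GRCh38, the labels' build (hg38). In the list 3 genes were matched by older symbols, IRAG1, STIMATE and MCUB. Members and lists were chosen with earlier results of these data known. Named were the members, genes of the wider list that were called lower, and up to 3 called genes per role whose groups did not overlap and whose mean reached 100, SMARCA4, and the 5 genes most like ITPR3. Genes outside this rule (neighbors of ITPR3, general chaperones and genes called only under a block) were named after their values were seen. A result for 1 gene of the wider list is not reported here.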

Additional observations from a re-analysis of the deposited data

How the results depend on the processing

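ITPR3 was called higher and 0 members lower in each of 13 alternatives, where its log2 fold change ran from 3.02 to 3.56 and its adjusted p reached at most 0.00245 (limma-voom). The difference of its log2 ratio to the other receptors ran from 3.17 to 3.96, and was 3.57 with all annotated exons as the length, a choice made after seeing the data. SMARCA4 was also called in all. The replicate block changed no call of a member, and moved only the counts given here. For the results that changed, the cause was not tested.

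Genes called lower (294 of all genes) were 146 with edgeR, 169 with limma-voom, 163 with library totals, 1035 with the replicate block and 809 for edgeR so blocked. Leaving out a library gave 116 (BRG1 replicate 2) to 596 (BRG1 replicate 3). In the wider list, the 5 higher calls became 10 when blocked (8 for edgeR so blocked), and 4 (BRG1 replicate 1 or 2 left out) to 8 (BRG1 replicate 3 left out). The 1 lower call was 0 with edgeR or library totals, 4 with either block, and 0 (any Control replicate or BRG1 replicate 1 left out) to 3 (BRG1 replicate 3 left out). With BRG1 replicate 2 left out the count was 1, but that gene was not RCN2 (DESeq2 adjusted p 0.169).

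Changes near 0 turned sign. With library totals ORAI1 was at 0.027. Leaving out a library, log2 fold changes ran from -0.25 to 0.042 for ITPR2, -0.36 to 0.047 for ATP2A3, -0.026 to 0.16 for STIM1, -0.16 to 0.12 for STIM2 and -0.13 to 0.058 for ORAI1. The differences of log2 ratios ran from -0.31 to 0.23 for ATP2A2 to ATP2A3 and from -0.15 to 0.29 for STIM1 to STIM2. Control replicate 2 turned the sign of both, and BRG1 replicate 1 also that of the latter. Depth limits ITPR3 most, at 20 counts in its lowest Control library.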
